A study of Mus musculus with 9 samples.

Results

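Lipoproteins that leave the liver or return to it are handled by a small set of surface receptors, lipases and plasma transfer proteins, and 8 of their genes are described here in mouse liver: Lrp1, Vldlr, Scarb1, Abca1, Lpl, Lipc, Lcat and Pltp. They were chosen by name as receptors, lipases and transfer proteins, with earlier results of these data known. All 8 were found among the 41388 genes of the deposited tables and passed the filter on low counts, which left 14741 genes. The question, from the title of the study, concerns tumour formation when very low-density lipoprotein (VLDL) secretion is impaired by loss of Mttp and when Fabp1 is lost as well.

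The animals were male C57BL/6J mice of 3 genotypes. DKO mice lacked Mttp in the liver and Fabp1 in the germline, MttpLKO mice lacked Mttp in the liver and kept Fabp1, and control mice carried the floxed Mttp allele (Mttp f/f) without deletion. All 3 groups, controls included, had been injected intraperitoneally at 14 days of age with 25 mg per kg of the carcinogen diethylnitrosamine (DEN), ate chow, and were 6 months old when the liver was taken. Each library was made from oligo(dT)-selected RNA pooled from 3 mice, with 3 pools per genotype and 9 libraries in all. A pool averages its mice, so the spread between pools understates that between animals. The driver of the liver deletion is not given in the sources used here, no group without DEN and none lacking Fabp1 alone was analysed here, and whether tumour tissue entered the pools is not stated.

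Chylomicron and VLDL triglyceride is hydrolysed on the capillary wall by lipoprotein lipase, and the remnants are cleared by hepatocyte receptors. In parallel, high-density lipoprotein (HDL) is formed when ABCA1 passes phospholipid and cholesterol to apolipoprotein A-I, matures as LCAT esterifies its cholesterol and PLTP adds phospholipid, and delivers cholesteryl ester back to hepatocytes through SR-BI, the product of Scarb1. MTTP, the product of Mttp, loads triglyceride onto apolipoprotein B so that VLDL can be secreted, and FABP1 binds fatty acids within hepatocytes.

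The libraries held 23268389 to 23429588 counts in DKO, 26362408 to 27918197 in MttpLKO and 24995426 to 27080442 in controls. Levels are given as CPM (reads of a gene relative to all counted reads of its library) on library sizes scaled by TMM unless RPKM is named. The targeted genes followed the labels. Mttp averaged 4.52 CPM in DKO and 7.39 CPM in MttpLKO, against 110 CPM in controls (181, 79.9 and 69.4 CPM). Fabp1 averaged 65.3 CPM in DKO, against 4120 CPM in MttpLKO and 6381 CPM in controls. Each MttpLKO library was below each control for Fabp1, at 3379 to 4984 against 6060 to 6845 CPM. The log2 fold change was -0.63 ± 0.18 (SE), with an edgeR adjusted p of 0.350. The hepatocyte product Alb lay at 34960 to 58240 CPM in DKO, 57790 to 69250 CPM in MttpLKO and 50660 to 61020 CPM in controls. The summed CPM of 7 hepatocyte markers was 57040 to 85630 in DKO, 85570 to 98550 in MttpLKO and 80290 to 93600 in controls. For DKO over control, 3 of the 7 were higher and 4 lower, with a median log2 fold change of -0.011. MttpLKO replicate 3 stood apart. Its score on the first principal component was 43.0, against -16.0 to 4.76 in the other 8 libraries, and 6 B and plasma cell markers summed to 57.1 CPM in it, against 4.79 to 8.28 CPM elsewhere. In the same library 6 proliferation markers summed to 25.7 CPM, against 6.30 to 13.4 CPM in the others, and 8 stellate cell and matrix markers to 447 CPM, against 217 to 295 CPM in the others. Results that rest on this library are therefore given with and without it. The labels do not say whether a pool shares a litter or a cage with another.

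Promoter windows from RefSeq (GRCm38.p6) were matched by symbol for 6 of the 8 genes: Lrp1, Vldlr, Abca1, Lipc, Lcat and Pltp. The windows of 250 bases before an annotated start are printed because they belong to the gene with the highest level per exon length (Lcat), the gene with the lowest (Vldlr, the outermost of its annotated starts) and a sterol-regulated gene of the set (Abca1), so that the genes behind the values can be seen. Capitals mark 4 short motifs searched on both strands.
Lcat, chr8:105943403-105943652, minus strand: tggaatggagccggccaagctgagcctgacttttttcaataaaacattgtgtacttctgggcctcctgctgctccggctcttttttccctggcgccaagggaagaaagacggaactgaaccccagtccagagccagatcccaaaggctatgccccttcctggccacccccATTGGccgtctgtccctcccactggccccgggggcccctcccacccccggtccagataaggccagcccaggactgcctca
Vldlr, chr19:27216234-27216483, plus strand: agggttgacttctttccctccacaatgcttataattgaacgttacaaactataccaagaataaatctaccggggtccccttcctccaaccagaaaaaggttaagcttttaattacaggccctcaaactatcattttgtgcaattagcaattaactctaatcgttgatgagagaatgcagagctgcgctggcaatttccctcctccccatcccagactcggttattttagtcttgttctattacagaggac
Abca1, chr4:53159896-53160145, minus strand: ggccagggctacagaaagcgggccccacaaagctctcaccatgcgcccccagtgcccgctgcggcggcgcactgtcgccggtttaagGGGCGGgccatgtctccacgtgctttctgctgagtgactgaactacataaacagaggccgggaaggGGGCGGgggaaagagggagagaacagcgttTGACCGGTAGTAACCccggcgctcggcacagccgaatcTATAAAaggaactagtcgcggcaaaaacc

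One motif was the GC box, spelled GGGCGG. Another was the CCAAT box, and another was the TATAAA form of the TATA box. The last was a pair of nuclear receptor half-sites, in which GGTNA is followed after 5 further bases by the half-site GGTCA on the same strand; the oxysterol receptor LXR is known to bind such a repeat in the human ABCA1 promoter. No matches overlapped one another in these windows. In Abca1 the half-site pair lay at -67 to -53 from the start, on the strand opposite the gene, with GGGCGG at -163 to -158 and at -97 to -92 and TATAAA at -29 to -24. Among all 32851 mouse promoter windows of this length, 0.177% held the pair, 32.7% held GGGCGG, 12.4% held TATAAA and 33.8% held CCAAT. Since such a repeat was already known from human ABCA1, the share of the pair does not measure how unexpected its match in mouse Abca1 was. The Lcat window held CCAAT on the opposite strand at -80 to -76, and the printed Vldlr window held none of the 4. The window of the inner Vldlr start, chr19:27216770-27217019, held GGGCGG at -42 to -37 and CCAAT at -78 to -74, both on the opposite strand. The windows also differed in base composition: the ratio of observed to chance CG dinucleotides was 0.317 in Lcat, 0.484 at the outer and 0.657 at the inner Vldlr start, and 0.847 in Abca1, against a median of 0.373 over all windows. These letters describe the genome; binding was not measured here.

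The deposited tables place Lrp1 (ENSMUSG00000040249) at chr10:127538161-127621148, Scarb1 (ENSMUSG00000037936) at chr5:125277087-125341094, Abca1 (ENSMUSG00000015243) at chr4:53030787-53159895 and Pltp (ENSMUSG00000017754) at chr2:164839518-164857711, all on the minus strand. Lcat (ENSMUSG00000035237, minus strand) and Lpl (ENSMUSG00000015568, plus strand) lie apart on chromosome 8, at chr8:105939551-105943382 and chr8:68880491-68907448, Vldlr (ENSMUSG00000024924, plus strand) lies at chr19:27216484-27254231, and Lipc (ENSMUSG00000032207, minus strand) at chr9:70798129-70934808. The tables name no build; the ends of these genes equal those of GENCODE M21 (GRCm38) except for Lipc, which M21 extends to 70952226. Counts were taken over the exons of each gene, whose joined length ran from 1342 bases in Lcat to 17717 bases in Lrp1.

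Per exon length the 8 genes spanned a wide range of levels. Mean deposited RPKM over the 9 libraries was 487 for Lcat (462 to 546), 77.9 for Lipc (65.4 to 89.8), 51.5 for Lrp1 (44.1 to 61.2), 25.7 for Scarb1 (21.4 to 34.6), 9.70 for Abca1 (7.25 to 12.2), 8.48 for Pltp (5.36 to 11.1), 3.09 for Lpl (1.49 to 4.76) and 0.305 for Vldlr (0.145 to 0.439). Only Abca1 and Pltp overlapped as neighbours in this order, with Abca1 the higher of the pair in 5 of 9 libraries; every other gene was above the next one in all 9. The order of levels in these livers thus placed the secreted HDL enzyme and the hepatic lipase first, and Lpl and Vldlr, genes best known from muscle, heart and fat, last.

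**Figure D1:**
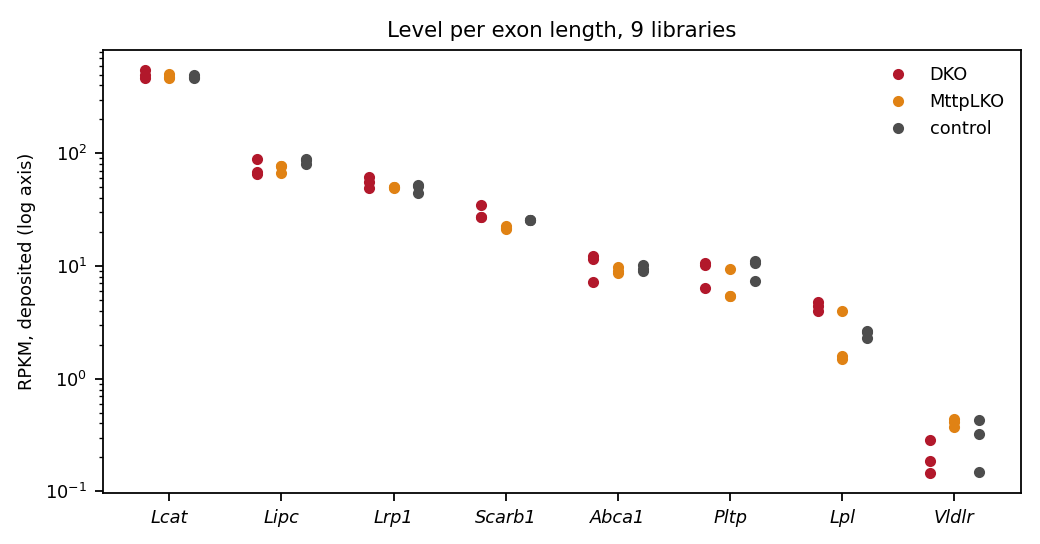
Deposited RPKM (log axis) of the 8 genes in the 9 libraries, ordered by mean level, with the 3 libraries of DKO, MttpLKO and control side by side. Lcat (462 to 546 RPKM) and Vldlr (0.145 to 0.439 RPKM) form the ends, and only Abca1 and Pltp overlap as neighbours.

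The spread between pools of one genotype also differed between the genes. The within-genotype SD on the log2 CPM scale was 0.11 for Lrp1, 0.12 for Lcat, 0.13 for Scarb1, 0.18 for Lipc, 0.25 for Abca1, 0.35 for Pltp, 0.43 for Lpl and 0.44 for Vldlr, beside a median of 0.20 over all genes tested. The 4 most tightly held genes were thus also the 4 highest per exon length. Vldlr rested on 34 to 120 counts per library and Lpl on 276 to 757, whereas Lrp1 rested on 20298 to 25354.

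No gene of the 8 passed the threshold (adjusted p under 0.05, edgeR's quasi-likelihood test with Benjamini-Hochberg adjustment over all genes tested) in any of the 3 comparisons. The threshold was passed by 0.400% of the 14741 genes for DKO against MttpLKO (59 genes), 0.332% for DKO against control (49 genes) and 0.346% for MttpLKO against control (51 genes), so that 0 of 8 is close to this background. DESeq2 also called 0 of the 8 in each comparison, where it called 1.45%, 1.73% and 1.12% of all genes in the same order of comparisons. So did limma-voom (0.380%, 0.237% and 0.278% of all genes) and limma-trend on the deposited CPM (0.441%, 0.305% and 0.298%). At an unadjusted edgeR p under 0.05 there were 3 of 8 for DKO against MttpLKO (Scarb1, Lpl and Vldlr; 9.10% of all genes), 1 of 8 for DKO against control (Lpl; 11.2%) and 0 of 8 for MttpLKO against control (6.97%). The libraries of the 2 genotypes did not overlap for the same 3 genes in DKO against MttpLKO (11.5% of all genes), for 1 gene, Lpl, in DKO against control (18.1%) and for 1 gene, Scarb1, in MttpLKO against control (14.3%). The median log2 fold change of the 8 was 0.13 for DKO over MttpLKO, 0.090 for DKO over control and -0.057 for MttpLKO over control, beside -0.016, -0.0019 and 0.011 over all genes. The comparisons share libraries with each other and are not independent.

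**Figure D2:**
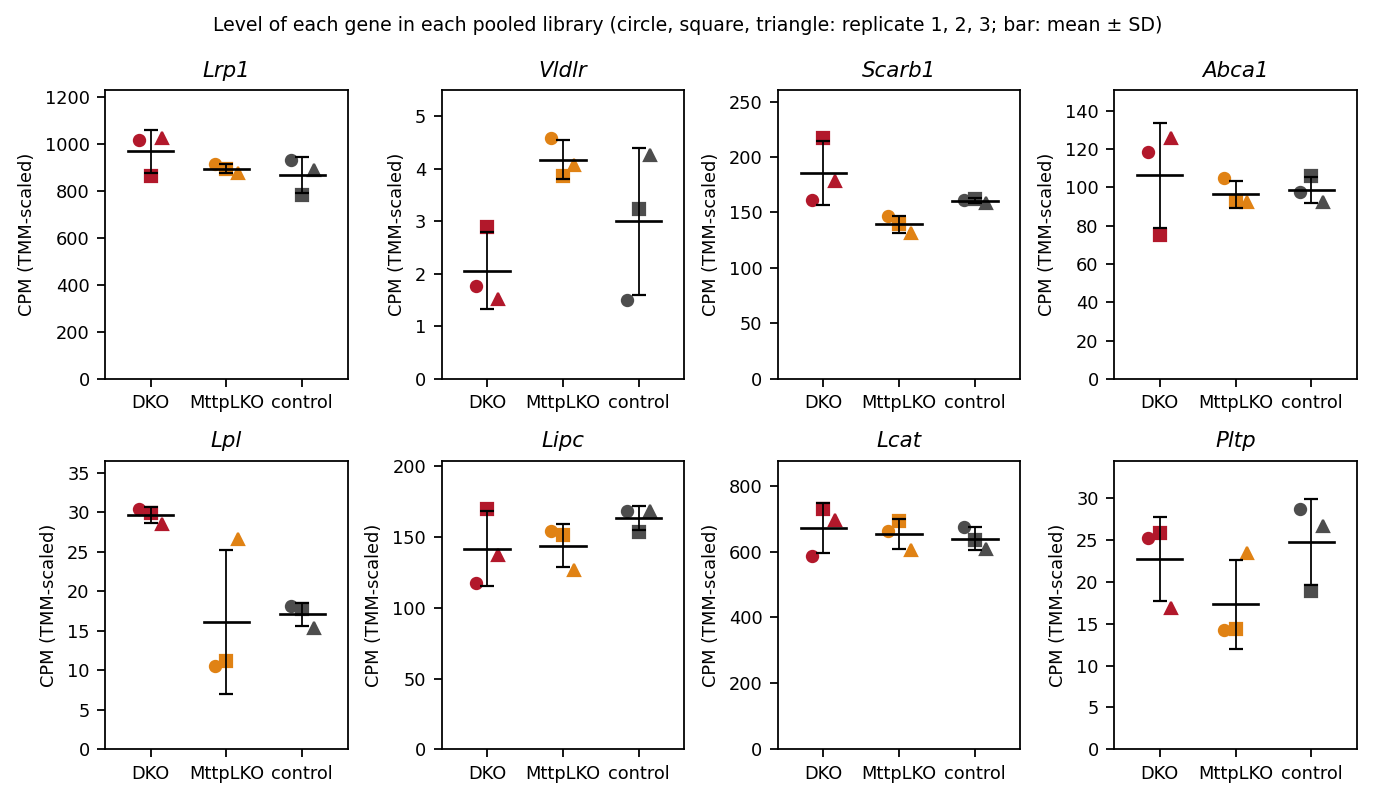
CPM on TMM-scaled library sizes of each gene in each pooled library of DKO, MttpLKO and control, with the mean and SD of 3 pools. The 3 DKO libraries lie at 28.5 to 30.4 CPM for Lpl, and MttpLKO replicate 3 (triangle) lies apart from the other 2 MttpLKO libraries for Lpl and Pltp.

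Of the receptors, Lrp1 encodes a large endocytic receptor of hepatocytes that takes up chylomicron remnants and many other ligands. It measured 1019, 864 and 1026 CPM in DKO, 916, 897 and 876 CPM in MttpLKO, and 934, 782 and 893 CPM in controls. All 3 groups overlapped. The log2 fold change was 0.11 ± 0.12 (SE) for DKO over MttpLKO, 0.16 ± 0.12 for DKO over control and 0.04 ± 0.12 for MttpLKO over control, with edgeR adjusted p of 0.817, 0.676 and 0.988. The 95% interval of the last fold ran from 0.861 to 1.23, which bounds any change of Lrp1 after loss of Mttp at this precision, before any allowance for the number of genes tested.

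Scarb1 encodes SR-BI, the HDL receptor through which hepatocytes take up cholesteryl ester without degrading the particle. It measured 161, 217 and 178 CPM in DKO, 147, 139.5 and 131 CPM in MttpLKO, and 162, 162 and 158 CPM in controls. Every MttpLKO library was below every library of the other 2 genotypes, and the DKO libraries started at the control level and reached above it. The fold of DKO over MttpLKO was 1.33 (95% interval 1.11 to 1.60), a log2 fold change of 0.41 ± 0.12 with an unadjusted p of 0.00515 and an adjusted p of 0.278 (edgeR). This was the smallest adjusted p of any of the 8 genes in any comparison. MttpLKO against control gave a log2 fold change of -0.21 ± 0.12 (adjusted p = 0.837) and DKO against control 0.21 ± 0.12 (adjusted p = 0.562). Without MttpLKO replicate 3 the log2 fold change of DKO over MttpLKO was 0.38 ± 0.14 (adjusted p = 0.372). Without DKO replicate 2, the highest library, it was 0.30 ± 0.10 (adjusted p = 0.303). In that fit DKO over control was 0.09 ± 0.10 (adjusted p = 0.714).

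Vldlr encodes the VLDL receptor, which binds triglyceride-rich particles carrying apolipoprotein E and is normally scarce in liver. It measured 1.77, 2.90 and 1.52 CPM in DKO, 4.58, 3.86 and 4.08 CPM in MttpLKO, and 1.50, 3.24 and 4.27 CPM in controls. The DKO libraries were all below the MttpLKO libraries, while the controls reached into both ranges. Vldlr was lower in DKO than in MttpLKO by 2.02-fold, a log2 fold change of -1.01 ± 0.36 (95% interval -1.80 to -0.23), an unadjusted p of 0.0160 and an adjusted p of 0.400 (edgeR). The log2 fold change was -0.54 ± 0.36 for DKO over control (adjusted p = 0.625) and 0.47 ± 0.35 for MttpLKO over control (adjusted p = 0.904). Single libraries moved both values: over the fits with one library left out they ranged from -0.85 (without DKO replicate 2) to -0.20 (without control replicate 3) and from 0.15 (without control replicate 1) to 0.80 (without control replicate 3). The counts behind these values were 44, 68 and 34 in DKO, 120, 105 and 110 in MttpLKO, and 37, 86 and 118 in controls. Defining transcripts of skeletal muscle, a tissue rich in Vldlr, were at or near 0 in all libraries: Ckm, Acta1 and Myh4 had 2, 4 and 1 counts over the 9.

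Abca1 encodes the transporter that starts HDL formation, and its transcription is driven by LXR. It measured 119, 74.9 and 126 CPM in DKO, 105, 92.7 and 92.2 CPM in MttpLKO, and 97.5, 106 and 92.4 CPM in controls. The DKO pools enclosed the range of both other genotypes, with replicate 2 the lowest and replicate 3 the highest of the 9 libraries. The log2 fold change was 0.14 ± 0.17 for DKO over MttpLKO, 0.11 ± 0.17 for DKO over control and -0.03 ± 0.17 for MttpLKO over control, with edgeR adjusted p of 0.850, 0.870 and 0.995. Of 10 genes for LXR and its targets, all tested, 0 were called in each comparison, beside 0.332% to 0.400% of all genes. The median log2 fold change of the 10 was 0.13 for DKO over MttpLKO, -0.037 for DKO over control and -0.15 for MttpLKO over control. The one with the smallest p was Srebf1, the regulator of fatty acid synthesis, for DKO against MttpLKO and for MttpLKO against control (edgeR adjusted p of 0.712 and 0.816). It averaged 329.7 CPM in DKO, 223 CPM in MttpLKO and 366 CPM in controls. The DKO mean hid a wide spread, with 439, 426 and 125 CPM, and DKO replicate 3 was the lowest of the 9 libraries. For DKO against control the smallest p was that of Rnf145, a ubiquitin ligase (20.6 CPM in DKO, 26.5 CPM in controls, edgeR adjusted p = 0.600). Its control libraries were at 36.5, 22.0 and 20.9 CPM, against 18.2 to 22.0 CPM in DKO.

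Lpl encodes lipoprotein lipase, which is made mainly by muscle, fat and macrophages and is low in adult hepatocytes. It measured 30.4, 29.9 and 28.5 CPM in DKO, 10.5, 11.2 and 26.5 CPM in MttpLKO, and 18.1, 17.8 and 15.3 CPM in controls. The DKO libraries were the 3 highest of the 9 and lay close together, the controls lay close together at a lower level, and MttpLKO held both the 2 lowest libraries and, in replicate 3, the fourth highest. The fold of DKO over MttpLKO was 1.84 (95% interval 1.18 to 2.86), a log2 fold change of 0.88 ± 0.29 with an unadjusted p of 0.0112 and an adjusted p of 0.360 (edgeR). The fold of DKO over control was 1.74 (1.12 to 2.69), a log2 fold change of 0.79 ± 0.29 with an unadjusted p of 0.0187 and an adjusted p of 0.342. MttpLKO against control gave -0.08 ± 0.29 (adjusted p = 0.992).

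Lpl was the gene for which one library decided the call. Without MttpLKO replicate 3, the log2 fold change of DKO over MttpLKO was 1.45 ± 0.13 with an edgeR adjusted p of 0.000599, and that of DKO over control was 0.79 ± 0.11 with an adjusted p of 0.0101. In that fit MttpLKO against control was -0.66 ± 0.13 (adjusted p = 0.0968). Calls over all genes rose as well. Of 14847 genes, the fit called 73 for DKO against MttpLKO and 100 for DKO against control. With all 9 libraries these were 59 and 49 of 14741. The part of the other cell markers of MttpLKO replicate 3 in its Lpl level was not tested. With DKO and control fitted alone, without any MttpLKO library, the log2 fold change was 0.79 ± 0.11 and the edgeR adjusted p 0.0182, where 78 of 14261 genes were called. The value for DKO over control kept its size in these fits and its SE was smaller, 0.11 against 0.29 with all 9 libraries. The fits differ in the pools that set the shared spread, and the SD of Lpl in MttpLKO was 9.06 CPM for Lpl, against 1.01 CPM in DKO and 1.50 CPM in controls. Leaving out any of the other 8 libraries gave log2 fold changes of 0.67 to 0.92 for DKO over MttpLKO and 0.72 to 0.86 for DKO over control, none called.

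**Figure D3:**
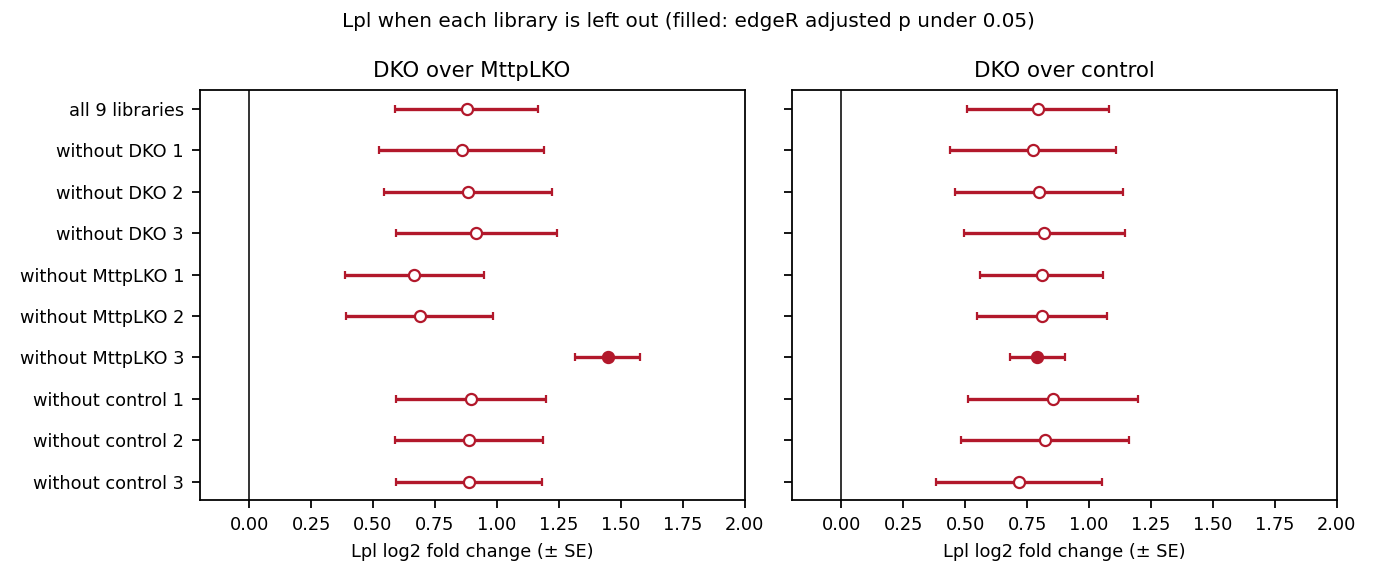
Log2 fold change of Lpl with its SE, for DKO over MttpLKO (left) and DKO over control (right), with all 9 libraries and with each left out in turn; filled points have an edgeR adjusted p under 0.05. Only the fits without MttpLKO replicate 3 pass, at 1.45 and 0.79.

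Lipc encodes hepatic lipase, the hepatocyte enzyme that hydrolyses triglyceride and phospholipid of remnants and HDL. It measured 118, 170 and 137 CPM in DKO, 154, 151 and 127 CPM in MttpLKO, and 168, 154 and 169 CPM in controls. Lipc thus had no group apart from the others: DKO replicate 2 was the highest library and DKO replicate 1 the lowest. The log2 fold change was -0.02 ± 0.14 for DKO over MttpLKO, -0.21 ± 0.14 for DKO over control and -0.18 ± 0.14 for MttpLKO over control, with edgeR adjusted p of 0.981, 0.635 and 0.911.

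The lipases act with cofactors and inhibitors, and 10 of these were listed and tested, among them Gpihbp1, Lmf1, Apoc2, Apoc3 and Apoa5. None was called in any comparison; 4 of 10 had an unadjusted p under 0.05 for DKO against MttpLKO, 2 for DKO against control and 1 for MttpLKO against control, beside 9.10%, 11.2% and 6.97% of all genes. Their median log2 fold change was -0.21, -0.17 and -0.071 in that order. Apoa5, an activator of lipoprotein lipase, measured 945, 1126 and 1314 CPM in DKO, 1735, 1990 and 1655 CPM in MttpLKO, and 1432, 1363 and 1743 CPM in controls. Each DKO library was below each library of the other genotypes, with a log2 fold change of -0.67 ± 0.15 over MttpLKO (edgeR adjusted p = 0.142) and -0.42 ± 0.15 over control (adjusted p = 0.342).

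Of the plasma HDL proteins, Lcat encodes lecithin-cholesterol acyltransferase, the enzyme secreted by hepatocytes that esterifies HDL cholesterol. It measured 585, 730 and 696 CPM in DKO, 661, 693 and 606 CPM in MttpLKO, and 676, 634 and 608 CPM in controls. The 3 groups overlapped throughout. The log2 fold change was 0.04 ± 0.12 for DKO over MttpLKO, 0.07 ± 0.12 for DKO over control and 0.03 ± 0.12 for MttpLKO over control (edgeR adjusted p of 0.953, 0.891 and 0.993). The 95% intervals of the folds reached from 0.852 to 1.26 over the 3 comparisons.

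Pltp encodes the phospholipid transfer protein, which moves phospholipid from triglyceride-rich particles to HDL and is made by hepatocytes and macrophages among other cells. It measured 25.3, 25.9 and 16.9 CPM in DKO, 14.3, 14.3 and 23.5 CPM in MttpLKO, and 28.8, 18.9 and 26.7 CPM in controls. Each genotype had 2 pools close together and another apart, and all groups overlapped. The log2 fold change was 0.39 ± 0.24 for DKO over MttpLKO, -0.12 ± 0.24 for DKO over control and -0.51 ± 0.24 for MttpLKO over control, with unadjusted p of 0.131, 0.607 and 0.0533 and edgeR adjusted p of 0.676, 0.899 and 0.730. Without MttpLKO replicate 3 the value for DKO over MttpLKO was 0.67 ± 0.22 (adjusted p = 0.302) and that for MttpLKO over control -0.80 ± 0.22 (adjusted p = 0.289). Pltp shares 495 of its 2562 exon bases, or 19.3%, with Ctsa on the opposite strand, a lysosomal gene at 170 to 221 CPM; whether the counting used strand is not given in the sources used here, so reads from these bases cannot be told apart.

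**Figure D4:**
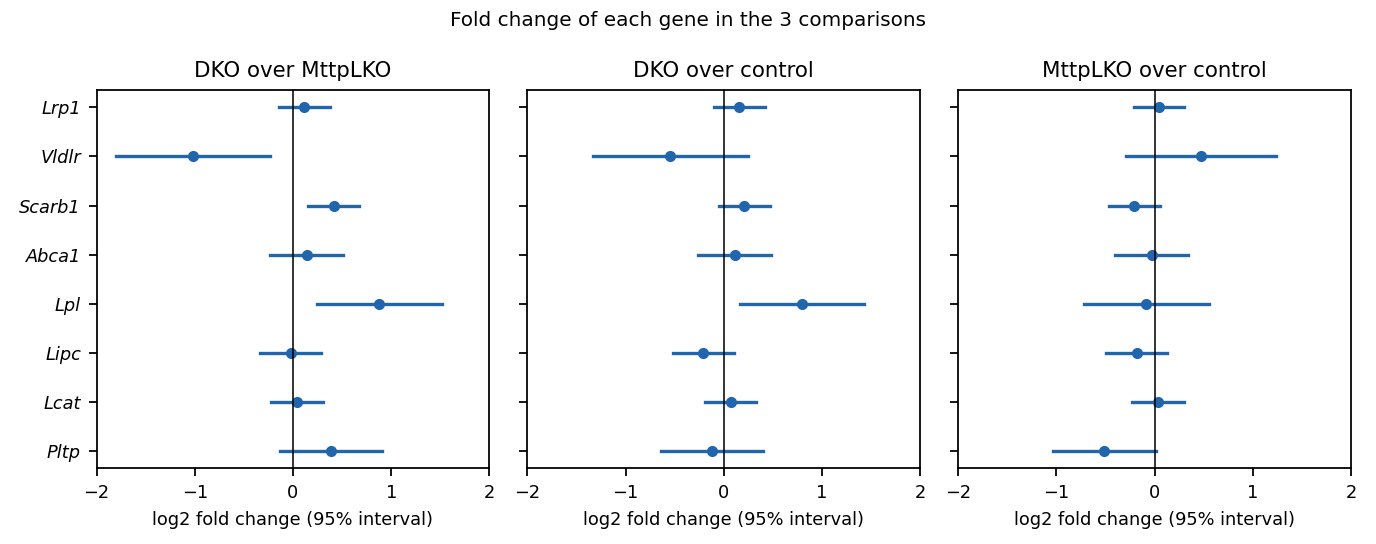
Log2 fold change with its 95% interval (edgeR, unadjusted) of the 8 genes for DKO over MttpLKO, DKO over control and MttpLKO over control. The interval lies off 0 for Scarb1, Lpl and Vldlr in the first and for Lpl in the second, and no gene has an adjusted p under 0.05.

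Pltp and Lpl are both known from macrophages, whose markers differed in level between the pools. The summed CPM of 8 macrophage markers, all detected in every library, was 123, 141 and 61.4 in DKO, 35.5, 43.9 and 105 in MttpLKO, and 127, 97.8 and 90.6 in controls. The 3 libraries lowest in these markers (MttpLKO replicates 1 and 2 and DKO replicate 3) were also the 3 lowest in Pltp. MttpLKO replicates 1 and 2 were also the lowest in Lpl, but DKO replicate 3 had 28.5 CPM of Lpl, and the controls, with marker sums of 90.6 to 127 CPM, had 15.3 to 18.1 CPM. None of the 8 markers was called in any comparison. At an unadjusted edgeR p under 0.05 there were 4 of 8 for DKO against MttpLKO (9.10% of all genes). There were 0 for DKO against control (11.2%) and 3 for MttpLKO against control (6.97%). All 8 were higher in DKO than in MttpLKO, and 7 were lower in MttpLKO than in controls. The median log2 fold change of the markers was 1.00 for DKO over MttpLKO, 0.22 for DKO over control and -0.79 for MttpLKO over control. In bulk RNA, fewer macrophages and less RNA per macrophage cannot be told apart, and the part of macrophages in the Pltp and Lpl values was not tested.

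**Figure D5:**
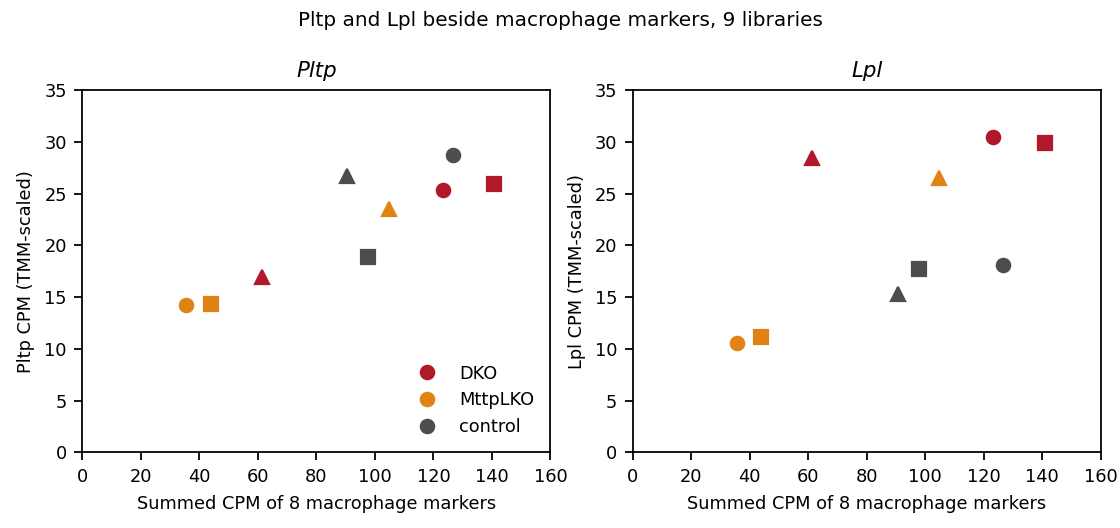
CPM of Pltp (left) and Lpl (right) against the summed CPM of 8 macrophage markers in the 9 libraries; symbols as circle, square and triangle for replicates 1, 2 and 3. The 3 libraries lowest in the markers are the 3 lowest in Pltp (14.3, 14.3 and 16.9 CPM), while for Lpl DKO replicate 3 (28.5 CPM) lies apart from the MttpLKO pair.

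The summed CPM of 8 adipocyte markers was 53.5, 102 and 39.7 in DKO, 14.7, 20.4 and 28.0 in MttpLKO, and 21.2, 35.2 and 34.9 in controls, so that each DKO library was above every other. The defining adipocyte transcripts were at or near 0: Adipoq and Plin1 had 9 and 10 counts over the 9 libraries and Lep had 0. The sum came from Cfd, Cidec and Fabp4, the 3 that passed the filter, and these did not run together. Cfd measured 11.7, 56.6 and 2.29 CPM in DKO, 1.53, 1.29 and 1.41 CPM in MttpLKO, and 4.29, 5.53 and 7.52 CPM in controls, so that DKO replicate 2 stood far above the rest and DKO replicate 3 below every control. Fabp4 lay at 9.54 to 13.8 CPM in DKO, 7.56 to 20.2 CPM in MttpLKO and 7.85 to 9.89 CPM in controls, which overlap. Cidec, a lipid droplet gene that steatotic hepatocytes also express, measured 31.2, 30.7 and 27.7 CPM in DKO, 5.39, 7.90 and 6.26 CPM in MttpLKO, and 8.69, 19.6 and 19.1 CPM in controls. Cidec rose in DKO over MttpLKO by 2.20 ± 0.27 on the log2 scale (edgeR adjusted p = 0.00611; 0.0178 without MttpLKO replicate 3). Beside 0.400% of all genes called for DKO against MttpLKO, Cidec was the 1 member of the list called in any comparison. Its log2 fold change was 0.92 ± 0.26 for DKO over control (adjusted p = 0.214) and -1.28 ± 0.27 for MttpLKO over control (adjusted p = 0.113), and both passed the threshold with DESeq2 (adjusted p = 0.0365 and 0.000706).

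Among 13 further receptors and adaptors of the pathway, 12 were tested. Only Lrp6 was called, beside 0.346% of all genes for MttpLKO against control and 0.332% for DKO against control. Lrp8, with 1 to 13 counts per library, did not pass the filter. Lrp6 encodes a Wnt co-receptor related to Lrp1. It measured 94.2, 75.5 and 118 CPM in DKO, 99.3, 111 and 95.7 CPM in MttpLKO, and 53.7, 52.9 and 54.4 CPM in controls. The controls were nearly equal and every library of both deletion genotypes was above them. The summed levels of markers of liver tumours and of bile duct cells were also lowest in controls. The 6 tumour markers summed to 41.6 to 70.6 CPM in DKO and 37.6 to 59.9 CPM in MttpLKO, against 13.9 to 31.1 CPM in controls. The 6 bile duct markers summed to 76.1 to 103 CPM in DKO and 84.8 to 142 CPM in MttpLKO, against 63.9 to 71.6 CPM in controls. Taken singly, all 6 tumour markers had a positive log2 fold change over control in both deletion genotypes. So did all 6 bile duct markers in MttpLKO (median 0.53), but 5 of 6 in DKO (median 0.078). The bile duct marker Cldn7 was lower in every DKO library (0.643, 1.06 and 0.762 CPM) than in every control (1.09 to 1.25 CPM). All markers of both lists were tested. Only Gpc3, a fetal liver gene that liver tumours express, was called, for DKO against control, beside 0.332% of all genes. Gpc3 averaged 10.7 CPM in DKO and 2.82 CPM in controls (edgeR adjusted p = 0.0423). In MttpLKO, where it was not called, Gpc3 measured 4.47, 6.87 and 12.5 CPM, each above every control (2.18 to 3.31 CPM). The part of these cells in the Lrp6 values was not tested. Lrp6 rose in MttpLKO over control by 0.93 ± 0.15 on the log2 scale (edgeR adjusted p = 0.0323) and in DKO over control by 0.84 ± 0.15 (adjusted p = 0.0446). These calls were near the threshold: with each library left out in turn the adjusted p ran from 0.00736 to 0.160 and from 0.00916 to 0.241, and without MttpLKO replicate 3 it was 0.0437 and 0.0348. For DKO against MttpLKO the smallest p of the list was that of Sort1, a sorting receptor for apolipoprotein B, with 24.4 CPM in DKO and 18.5 CPM in MttpLKO (adjusted p = 0.430). The list's median log2 fold change was 0.12 for DKO over MttpLKO, 0.16 for DKO over control and 0.059 for MttpLKO over control.

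Of 8 genes of HDL formation and sterol efflux (Apoa1, Apoa2, Apom, Abcg1, Abcg5, Abcg8, Pon1 and Pdzk1), all tested, 0 were called in each comparison, beside 0.332% to 0.400% of all genes. The median log2 fold change of this list was 0.071 for DKO over MttpLKO, -0.083 for DKO over control and -0.037 for MttpLKO over control. Apom, the HDL apolipoprotein that carries sphingosine 1-phosphate, measured 123.2, 149 and 208 CPM in DKO, 184, 151 and 141 CPM in MttpLKO, and 123.0, 99.0 and 85.0 CPM in controls. Its log2 fold change over control was 0.64 ± 0.20 in DKO and 0.63 ± 0.20 in MttpLKO (edgeR adjusted p of 0.262 and 0.411). Pon1, the HDL-borne paraoxonase, had the smallest p of the list for DKO against MttpLKO, at 739 CPM in DKO and 916 CPM in MttpLKO (adjusted p = 0.604).

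Genes whose levels ran most like Scarb1, the member with the smallest adjusted p, were sought over the 9 libraries by the Pearson correlation of log2 CPM, as a description. Lmf1 had the highest r of all genes tested (r = 0.977, Spearman's rho = 0.933), and Bik was among the 3 highest (r = 0.943, rho = 0.817). The 9 points share 3 genotypes and a common scaling, and the top of 14741 correlations is high by selection. Leaving out DKO replicate 2 and MttpLKO replicate 3, the 2 libraries farthest from the median of Scarb1, r was 0.896 for Lmf1 and 0.834 for Bik. Lmf1 encodes lipase maturation factor 1, which is needed to fold lipoprotein lipase and hepatic lipase. It measured 77.3, 94.6 and 79.4 CPM in DKO, 71.8, 68.9 and 66.6 CPM in MttpLKO, and 77.9, 79.4 and 78.8 CPM in controls. Because Lmf1 was chosen for its likeness to Scarb1 over these libraries, a like order of the groups follows largely from that choice. The MttpLKO libraries were below all others for Lmf1, with a log2 fold change of DKO over MttpLKO of 0.28 ± 0.10 (edgeR adjusted p = 0.417).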

How the data were processed

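Liver RNA of 9 pooled libraries was measured. Per the file headers, the authors deposited raw counts per gene with CPM and RPKM computed from them; recomputed values differed by at most 5.1e-11 CPM and 4.7e-11 RPKM. The submitters' processing notes list the tools STAR (2.0.4b), featureCounts (1.4.5) and Subread without roles. For genome build, strand setting and multi-mapped reads the answer is not given in the sources used here. Counts were tested with edgeR 4.0.16 (R 4.3.3): filterByExpr with a minimum count of 10, TMM scaling, 1 quasi-likelihood fit of 3 genotype means over all 9 libraries, Benjamini-Hochberg adjustment over 14741 genes, threshold 0.05. The code was first tested on simulated data. CPM values in the text are on TMM-scaled library sizes, and RPKM values are as deposited. Library depth, given in the text, limits precision chiefly for Vldlr; the biological coefficient of variation was 18.3%. Replicates differed by more than sampling noise in every pair (chi-square of 21.4 to 71.3 per degree of freedom). That pools are separate rests on the labels.

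The 8 genes, the lists and the tests were chosen with earlier results of these data known. Text names the 8 genes, Mttp, Fabp1, called genes (up to 3) or else the gene with the smallest p of each pathway list, and the 3 genes most like the member with the smallest adjusted p; marker lists are given by summed CPM. Some genes that this rule takes are not reported here. Alternatives were DESeq2 1.42.0, limma 3.58.1 (voom, and trend on log2 of deposited CPM plus 0.5), other scalings and filters, the replicate number as a block, 2 genotypes alone, and each library left out.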

Additional observations from a re-analysis of the deposited data

How the results depend on the processing

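Of the 8 genes, 0 were called in any comparison under other scalings, filters or tests, or with the replicate block; with DKO and control alone, 1 gene, Lpl, was called. Leaving out each library in turn gave 0 to 1 genes called for DKO against MttpLKO and for DKO against control and 0 for MttpLKO against control, the 1 being Lpl without MttpLKO replicate 3. Over all genes, calls for MttpLKO against control, DKO against MttpLKO and DKO against control numbered 51, 59 and 49, against 171, 180 and 201 with no filter on low counts and 165, 214 and 255 with DESeq2; with 2 genotypes alone they numbered 34 for DKO against MttpLKO and 78 for DKO against control. Leaving out each library gave 14 to 54, 22 to 73 and 15 to 100. Among the 8 genes, signs turned only in fits with one library left out. For MttpLKO over control the log2 fold changes then ranged from -0.036 to 0.098 for Lrp1, from -0.096 to 0.015 for Abca1, from -0.014 to 0.077 for Lcat and from -0.66 to 0.14 for Lpl. For DKO over MttpLKO they ranged from -0.16 to 0.093 for Lipc and from -0.016 to 0.13 for Lcat. For DKO over control they ranged from -0.031 to 0.32 for Abca1 and from -0.29 to 0.045 for Pltp. For Lrp6 and Cidec, checks chosen after seeing the data, Cidec was called for DKO against MttpLKO in every fit; it was also called for DKO against control with DESeq2 (adjusted p = 0.0365) and with no filter (0.0303), and for MttpLKO against control with DESeq2 (0.000706), with no filter (0.00159) and without control replicate 1 (0.00284). Lrp6 lost its call for MttpLKO against control without any one control or without MttpLKO replicate 1 or 2, and for DKO against control without any one control, MttpLKO replicate 2, or DKO replicate 1 or 3, with limma-voom (adjusted p = 0.0560) and with 2 genotypes alone (0.0548); for DKO over MttpLKO its value ranged from -0.26 to 0.068. The cause of these changes was not tested; limma-voom used the same libraries and genes as the edgeR fit.

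The replicate numbers of the labels did not pair the libraries: deviations of same-numbered libraries from their genotype means correlated at -0.25 to 0.083. With the replicate block, calls numbered 35, 43 and 40 in the same order, and 0 of the 8 genes was called in each comparison; Lrp6 lost its calls with the block (adjusted p = 0.0588 and 0.0885 for MttpLKO and DKO against control) at log2 fold changes of 0.93 and 0.83, and with one library left out these ranged from 0.86 to 0.97 and from 0.66 to 0.99. With RLE or upper quartile scaling the median log2 fold change of all genes was -0.036 to 0.012 over the 3 comparisons, and no sign of the 8 genes turned.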
